A study of Mus musculus with 8 samples.

Results

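*Ptprc*, *Cd53*, *Coro1a*, *Laptm5*, *Ptpn6*, *Itgb2*, *Tyrobp*, *Fcer1g*, *Rac2*, and *Lcp1* are used by most white blood cell lineages, and this report follows these 10 genes, of 16994 in the count table, through the hearts of mice with a whole-body deletion of *Tigar* (TKO) and WT controls. They were chosen on these same samples, as pan-leukocyte genes with TKO over WT ratios under 1, so those ratios are given as a description without a test. Of the 10 genes, 9 passed the filter on low counts (a mean CPM, counts scaled to library size, of 1 or more), as did 12999 genes in all. *Tyrobp* did not pass, and its counts are given on their own.

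All mice were male, and each pairing of genotype and region gave a single RNA library, 8 in total. The regions were left ventricle (LV), presented as normal tissue, and the infarct, border, and remote zones of hearts whose left anterior descending coronary artery was ligated at 16 weeks of age. Heart function was followed to 4 weeks after ligation, and the time at which tissue was taken for RNA is not stated. Whether the LV mice were sham operated, and their age, are not given in the sources used here. The TKO mice lack TIGAR in every cell, leukocytes included, and the strain of TKO and WT mice is not detailed in the sources used here. RNA of 3 mice per genotype was pooled for the infarct zone. The number of mice behind the other libraries, and whether regions came from the same hearts, are not known.

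White blood cells share a set of genes that few other cells use. *Ptprc* encodes CD45, a membrane tyrosine phosphatase that switches on Src family kinases at immune receptors. Receptors without a signaling tail of their own pair with small adaptors (*Tyrobp*, *Fcer1g*) whose tyrosine motif (ITAM) recruits the kinase SYK, and the phosphatase SHP-1 (*Ptpn6*) works against this from inhibitory receptors. β2 integrin (*Itgb2*), coronin 1A (*Coro1a*), the GTPase RAC2 (*Rac2*), and L-plastin (*Lcp1*) serve adhesion and the actin cytoskeleton during migration. In an infarcted heart such cells enter the injured wall and clear debris, and a smaller resident population, mostly macrophages, lives in uninjured myocardium.

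Total counts lay between 27429240 and 33799249 per library. *Tigar* itself had 1965, 1066, 2215, and 1997 counts in WT LV, infarct, border, and remote zones, against 51, 87, 79, and 87 in TKO hearts in the same order. The infarct zone libraries stood apart, with trimmed mean of M values (TMM) scaling factors of 1.54 in WT and 1.26 in TKO against 0.866 to 0.956 in the other 6 libraries. In these bulk tissues, fewer cells of a type and less RNA per cell cannot be told apart.

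Across the 9 genes that passed the filter, levels were lower in the TKO library than in the WT library of the same region in all 36 pairs of values. The median TKO over WT ratio of TMM-scaled CPM was 0.636 in LV, and 0.643, 0.657, and 0.681 in infarct, border, and remote zones, while the median over all 12999 genes lay between 0.992 and 1.01. All 9 genes were below 1 in each of the 4 regions, where 13.5% of all genes tested were, a count that the choice of the genes fixes in part. *Ptprc* and *Cd53* were at least 1.5-fold lower in every region, as were 0.531% of all genes. Counting 1 region at a time, 5 of the 9 genes were at least 1.5-fold lower in LV (background 9.16%), 6 in infarct (6.43%), 7 in border (8.67%), and 4 in remote zones (6.66%). Nothing is read from these shares, because the genes were picked by this contrast. The border count includes *Itgb2* and *Rac2* at 0.666 each, just past the 1.5-fold line, and leaves out *Laptm5* at 0.668. With other scalings it lay between 5 and 8.

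**Figure D1:**
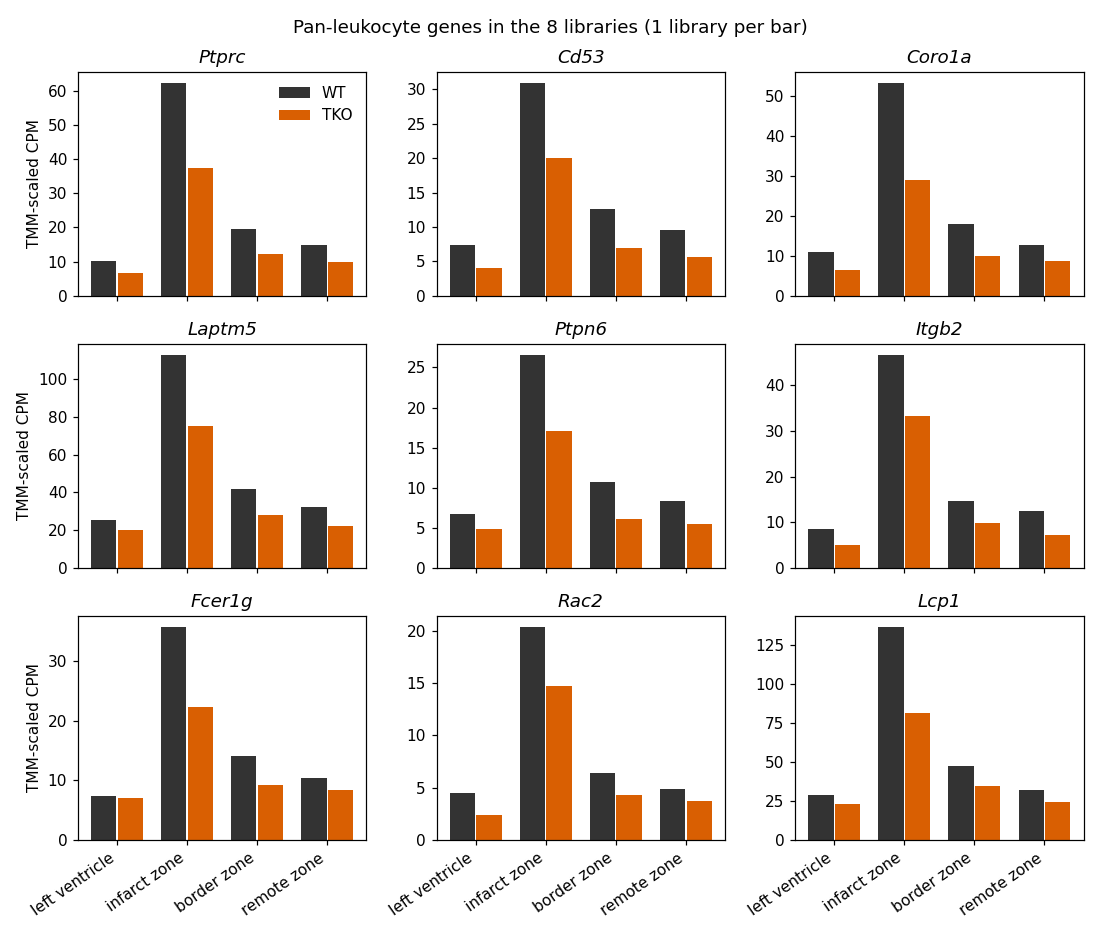
TMM-scaled CPM (vertical axes, starting at 0) of the 9 pan-leukocyte genes that passed the filter, by region on the horizontal axes, in WT (dark) and TKO (orange); each bar is 1 library. In every panel the WT infarct zone is the highest bar, the TKO infarct zone the second, and TKO LV the lowest.

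For the surface and lysosomal genes, the highest ratio over regions was 1.1-fold to 1.24-fold the lowest. *Ptprc* (ENSMUSG00000026395, chromosome 1 of GRCm38, 138062861 to 138175708) stood at 10.3 CPM in LV, 62.4 in infarct, 19.5 in border, and 14.8 in remote zones of WT hearts. In TKO hearts the same regions gave 6.56, 37.3, 12.3, and 9.73 CPM. The TKO library was the lower one in each region, and its ratios of 0.636, 0.598, 0.630, and 0.657 spanned only 1.1-fold, the narrowest span of the 9 genes. The counts behind them ran from 170 in TKO LV to 2638 in the WT infarct zone, and the 95% intervals from counting error reached no higher than 0.772.

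*Cd53* (ENSMUSG00000040747, chromosome 3, 106759921 to 106790149) encodes a tetraspanin, a membrane organizer found on leukocytes. Its levels were 7.37, 31, 12.6, and 9.50 CPM in WT LV, infarct, border, and remote zones and 4.09, 20, 6.98, and 5.68 CPM in TKO. All 3 TKO libraries outside the infarct zone lay below the lowest WT library. The ratios were 0.555, 0.646, 0.554, and 0.598 in that order of regions.

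*Itgb2* (ENSMUSG00000000290, chromosome 10, 77530252 to 77565708), the shared β chain of the leukocyte integrins, had 8.43, 46.7, 14.6, and 12.5 CPM in WT and 4.90, 33.2, 9.71, and 7.21 CPM in TKO, with regions in the same order. Its ratio was nearest to 1 in the infarct zone, at 0.711 (95% interval from counting error, 0.662 to 0.765), and farthest in the remote zone and LV, at 0.576 and 0.582. *Laptm5* (ENSMUSG00000028581, chromosome 4, 130913125 to 130936141), a lysosomal membrane protein that limits surface receptor levels in lymphocytes, had 25.4, 113, 41.6, and 32.3 CPM in WT and 19.8, 75.2, 27.8, and 22.0 CPM in TKO. Its ratios of 0.667 to 0.681 in the 3 zones after infarction were nearly equal, and that of LV was 0.778.

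For the signaling genes this span was 1.29-fold (*Ptpn6*) and 1.54-fold (*Fcer1g*). *Fcer1g* (ENSMUSG00000058715, chromosome 1, 171229572 to 171234365), the Fc receptor γ chain, was at 7.33, 35.8, 14.1, and 10.4 CPM in WT LV, infarct, border, and remote zones and at 7.03, 22.4, 9.27, and 8.44 CPM in TKO. The LV libraries could not be told apart at this depth, with 201 and 182 counts and a ratio of 0.958 (0.780 to 1.18). This was the only one of the 36 ratios whose counting-error interval reached 1. In the infarct, border, and remote zones its ratios were 0.624, 0.657, and 0.810, and its span over regions was the widest of the 9 genes.

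*Ptpn6* (ENSMUSG00000004266, chromosome 6, 124720707 to 124738714) was at 6.68, 26.6, 10.7, and 8.38 CPM in WT and 4.90, 17.1, 6.10, and 5.45 CPM in TKO, in the same order of regions. Every TKO library outside the infarct zone lay below every WT library. Its lowest ratio was that of the border zone (0.571) and its highest that of LV (0.734).

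*Tyrobp* (ENSMUSG00000030579, chromosome 7, 30413760 to 30417585), which encodes the adaptor DAP12, was listed at 0 in both LV libraries, both infarct zone libraries, and the TKO remote zone. Border zone libraries held 68 counts (WT) and 71 (TKO), and WT remote zone held 25. The 2 border libraries therefore did not differ beyond counting error, with a ratio of 1.08 (0.767 to 1.54). A library at 0 between others with clear counts was not peculiar to this gene: 689 genes of 16994 (4.05%) were at 0 in a library and had at least 20 counts in another. In the GENCODE M21 annotation, which may differ from the index the authors used, none of the 666 stretches of 31 bases in *Tyrobp* transcripts occurred in another gene. What produced the zeros was not tested.

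For the genes of the actin cytoskeleton the span was 1.26-fold (*Coro1a*), 1.34-fold (*Lcp1*), and 1.41-fold (*Rac2*). *Coro1a* (ENSMUSG00000030707, chromosome 7, 126699773 to 126707787) gave 10.9, 53.4, 17.9, and 12.8 CPM in WT LV, infarct, border, and remote zones and 6.56, 29.0, 9.88, and 8.70 CPM in TKO. Its infarct zone ratio, 0.542 (0.503 to 0.584), was the lowest of all 36. *Rac2* (ENSMUSG00000033220, chromosome 15, 78559167 to 78572783) gave 4.45, 20.4, 6.43, and 4.83 CPM in WT and 2.43, 14.7, 4.28, and 3.72 CPM in TKO. It had the fewest counts of the 9 genes, 63 in TKO LV and 122 in WT LV, and its LV ratio of 0.546 accordingly had a wide interval (0.397 to 0.747).

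*Lcp1* (ENSMUSG00000021998, chromosome 14, 75131101 to 75230842) gave 28.8, 137, 47.3, and 32.1 CPM in WT and 23.1, 81.7, 34.4, and 24.3 CPM in TKO. Its infarct zone ratio of 0.597 (0.571 to 0.624) stood against 0.80 in LV (0.718 to 0.890), and these 2 intervals did not overlap. Of its 9573 stretches of 31 bases, 14.4% also occur in another gene, against 5.78% or less for the other 9 genes, so its counts carry more uncertainty from shared sequence.

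**Figure D2:**
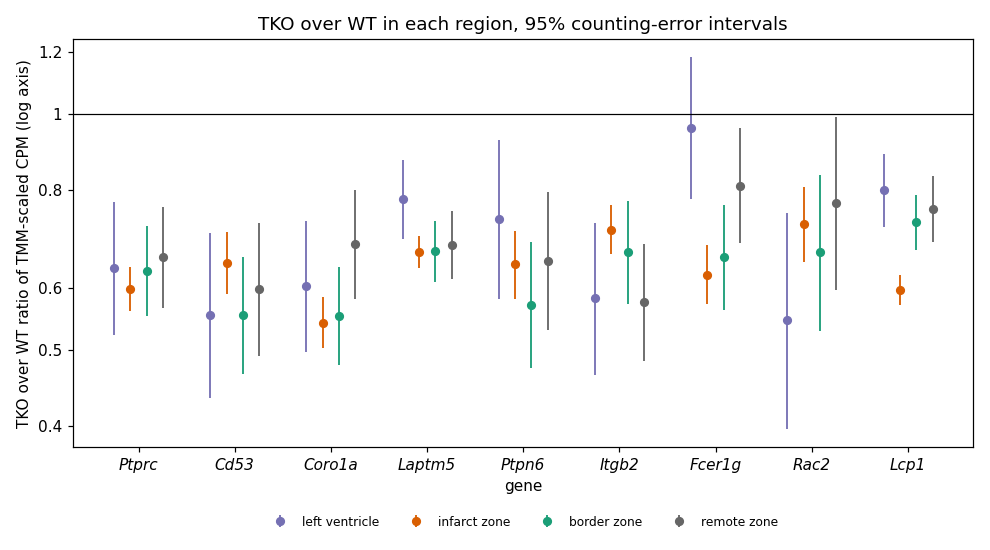
Ratio of TMM-scaled CPM in TKO over WT (vertical log axis) for each of the 9 genes (horizontal axis) in 4 regions (colors); bars are 95% intervals that cover counting error only, and the line marks a ratio of 1. All 36 points lie below 1, from 0.542 (*Coro1a*, infarct zone) to 0.958 (*Fcer1g*, LV), the only point whose bar crosses the line.

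Within a region, the SD of the log2 ratios of the 9 genes was 0.28 in LV, and 0.13, 0.14, and 0.17 in infarct, border, and remote zones. Since the genes were chosen on these ratios, this spread is a description of them only. The order of levels across libraries began and ended alike: in all 9 genes the WT infarct zone was first, the TKO infarct zone next, then the WT border zone, and TKO LV was last. The TKO infarct zone held 1.58-fold (*Fcer1g*) to 2.29-fold (*Rac2*) the level of the WT border zone. The TKO border zone stood at 0.908-fold (*Coro1a*) to 1.26-fold (*Fcer1g*) of WT LV, so the order of these 2 groups differed between genes. With 1 library per group there is no replicate spread against which to set neighbors in that order.

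Summed over the 9 genes, WT libraries had 109.7 CPM in LV and 525.8, 184.7, and 137.7 CPM in infarct, border, and remote zones. TKO libraries had 79.31, 330.6, 120.7, and 95.29 CPM. The scaling mattered in the infarct zone. With total counts in place of TMM, the median ratio of the 9 genes there was 0.524 instead of 0.643, and the median of all genes tested moved to 0.819, a shift of -0.29 on the log2 scale.

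Regions were then compared with both genotypes in 1 fit. The fold changes between regions did not enter the choice of the genes. With 1 library per genotype and region, the fit's error comes from how far a gene's TKO over WT ratio varies between regions. The genes were chosen on those ratios, so their SEs, p-values, and calls are not independent of the choice. Here the WT and TKO libraries of a region stand in as 2 samples, so the quasi-likelihood test of edgeR (Benjamini-Hochberg adjusted over 12999 genes) bears on what the genotypes share and on these libraries rather than on mice. All 9 genes rose in the infarct zone over LV, where 28.2% of all genes tested were called higher. The log2 fold changes ran from 1.90 ± 0.132 (SE) for *Ptpn6* to 2.61 ± 0.122 for *Itgb2*, with a median of 2.18 against 0.0189 over all genes and adjusted p-values from 0.000184 to 0.000570. *Ptprc* was 5.86-fold higher (log2 2.55 ± 0.0967, adjusted p = 0.000184). It was 6.04-fold higher within WT and 5.68-fold higher within TKO libraries. With total-count scaling all 9 were again called higher. That scaling moved the median of all genes to 0.71 on the log2 scale. It changed the split of calls over all genes from 3670 higher and 3715 lower to 7869 higher and 1084 lower.

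All 9 genes also rose in the infarct zone over the border zone, by 1.31 ± 0.164 (*Fcer1g*) to 1.73 ± 0.116 (*Itgb2*) on the log2 scale (adjusted p, 0.00470 and 0.00207), where 21.6% of all genes were called higher. Without the TKO border library the call for *Fcer1g* was lost, at a log2 fold change of 1.19, and 8 remained. Total-count scaling changed the split over all genes from 2814 higher and 2842 lower to 7475 and 738.

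In the border zone over LV, *Ptprc* and *Itgb2* rose, by 0.91 ± 0.0958 (adjusted p = 0.0300) and 0.88 ± 0.122 (adjusted p = 0.0439) on the log2 scale, which makes 2 of 9 genes where 0.669% of all genes tested were called higher. The other 7 genes had log2 fold changes of 0.50 (*Ptpn6*) to 0.77 (*Cd53*) with adjusted p-values from 0.0567 to 0.146. These 2 calls were not stable: neither was made without any 1 of the 6 zone libraries (infarct, border, or remote, of either genotype), *Ptprc* alone was called without WT LV, and *Ptprc* and *Laptm5* without TKO LV. DESeq2 called 6 of the 9 genes (*Ptprc*, *Cd53*, *Coro1a*, *Laptm5*, *Itgb2*, and *Lcp1*).

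In the remote zone over LV, none of the 9 genes was called by edgeR (0% of all genes tested were called higher, while 1378 had an unadjusted p under 0.05). DESeq2 called 127 genes higher and 35 lower, none of the 9 among them. The log2 fold changes were between 0.12 ± 0.127 (*Lcp1*) and 0.56 ± 0.122 (*Itgb2*), with a median of 0.347.

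**Figure D3:**
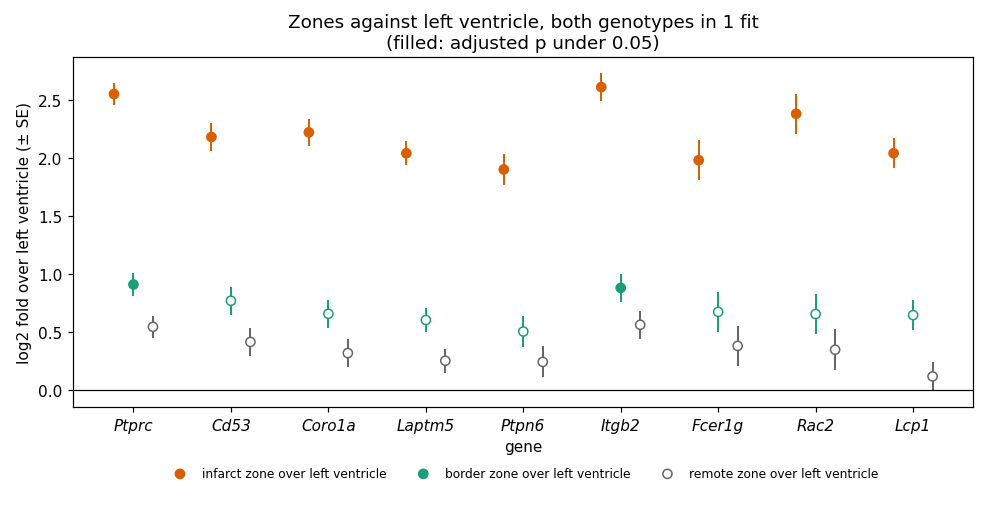
Log2 fold over LV (vertical axis) for the 9 genes (horizontal axis) in the infarct, border, and remote zones, from 1 edgeR fit over 8 libraries; bars are SEs and filled points have an adjusted p under 0.05. The infarct zone points lie between 1.90 and 2.61, those of the border zone between 0.50 and 0.91, and those of the remote zone between 0.12 and 0.56.

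Many of the 9 genes have a close relative that most cells use. The 8 relatives examined (*Ptpra*, *Cd81*, *Coro1c*, *Laptm4a*, *Ptpn11*, *Itgb1*, *Rac1*, and *Pls3*) had median TKO over WT ratios of 1.02 in LV and of 0.926, 0.947, and 0.95 in infarct, border, and remote zones. In no region was any of them 1.5-fold lower, where 6.43% to 9.16% of all genes tested were. With 8 genes, nothing is read from that count. *Rac1* had ratios of 0.879 to 1.05 where *Rac2* had 0.546 to 0.770, and *Itgb1*, the widely used integrin β chain, had 0.902 to 0.957 where *Itgb2* had 0.576 to 0.711. *Ptpn11*, which encodes SHP-2, had 1.39 in the infarct zone, where *Ptpn6* had 0.643. Of the 32 pairs of values, *Lcp1* in the border zone (0.728) was the one above its relative, *Pls3* (0.705). The pan-leukocyte genes were chosen for ratios under 1 in these libraries, and the relatives were not. The order within these pairs is therefore set in part by that choice, and it is given as a description only. Between regions, 3 of the 8 relatives rose in the infarct zone over LV, near the 28.2% of all genes tested, with a median log2 fold change of 0.159 over the 8.

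Partners of these proteins in the same pathways were counted from 8 lists, 64 genes of which 63 were in the table. In the infarct zone 61 of 63 had a TKO over WT ratio below 1, with a median of 0.677, against a median of 1 over all genes tested. At least 1.5-fold lower there were 29 of the 63, against 6.43% of all genes tested. The other medians were 0.790 (LV), 0.706 (border), and 0.759 (remote), each over the 60 or 61 genes with more than 3 counts in both libraries compared. These lists were drawn up with earlier results of these data known, and their ratios come from the same libraries, so they are no independent support. In the edgeR fit 55 of the 58 partners tested rose in the infarct zone over LV (28.2% of all genes), and 54 of 58 rose over the border zone (21.6%). These counts are partly set by the filter, since 6 of the 64 partners were not tested and 4 of the 58 had both LV libraries under its minimum. *Cd52*, a small surface glycoprotein of lymphocytes and macrophages, was the 1 partner called in the border zone over LV (log2 1.28 ± 0.146, adjusted p = 0.0334), and none was called in the remote zone.

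Receptors that signal through the ITAM adaptors had the lowest medians of the partner lists outside LV. Of the 10 receptors, 9 were at least 1.5-fold lower in the infarct zone (median 0.574), against 6.43% of all genes tested. In the border zone 8 of the 9 above the floor of 3 counts were (median 0.429), against 8.67%. In LV 1 of 8 was (median 0.847), near the 9.16% of all genes tested. *Trem2*, a lipid-sensing receptor of macrophages that pairs with DAP12, had 52 and 47 counts in WT and TKO LV, a ratio of 0.956. The counts were 567 and 301 for infarct (0.628), 126 and 68 for border (0.561), and 113 and 61 for remote zones (0.546). The LV interval of *Trem2* was wide (0.631 to 1.45) and overlapped those of the zones, so its LV ratio is not set apart from them. Of the 8 receptors above the floor in LV, 2 had intervals below 1 there. These were *Fcgr1* at 0.659 (0.440 to 0.979) and *Fcgr3* at 0.789 (0.667 to 0.931). Kinases and scaffolds downstream of ITAMs had medians of 0.742, 0.645, 0.780, and 0.847 in LV, infarct, border, and remote zones. *Vav1*, an exchange factor for RAC proteins, was lower throughout, with 0.670, 0.645, 0.599, and 0.566.

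Integrin partners were nearest to 1 in the border zone (median 0.868), and their lowest median was that of LV (0.733). The LV median was the ratio of *Itgad*, with 13 and 9 counts and an interval of 0.276 to 1.85. Nothing is therefore read from this order of regions. *Itgam*, the αM chain that pairs with *Itgb2*, had ratios of 0.698, 0.849, 0.620, and 0.722 in LV, infarct, border, and remote zones. *Itgam* and *Itgb2* were thus both nearest to 1 in the infarct zone, as was the listed partner *Itgax* (0.606). The listed partner *Itgal* went the other way, with 0.756 in the infarct zone against 0.782 to 0.945 elsewhere. Inhibitory receptors that recruit SHP-1 had medians of 0.678 to 0.771, and the phagocyte NADPH oxidase, which RAC2 helps to switch on, had 0.936, 0.696, 0.625, and 0.759 over the same regions. Its catalytic subunit *Cybb* had 0.936, 0.677, 0.827, and 0.759. Leukocyte regulators of actin and RAC had medians of 0.728 to 0.844. Among leukocyte transcription factors (medians 0.617 to 0.745), *Spi1*, which encodes the myeloid factor PU.1, had 0.748, 0.593, 0.706, and 0.656. *Runx1* had 1.38 in LV, with an interval that held 1, and 0.529, 0.476, and 0.677 in the zones.

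**Figure D4:**
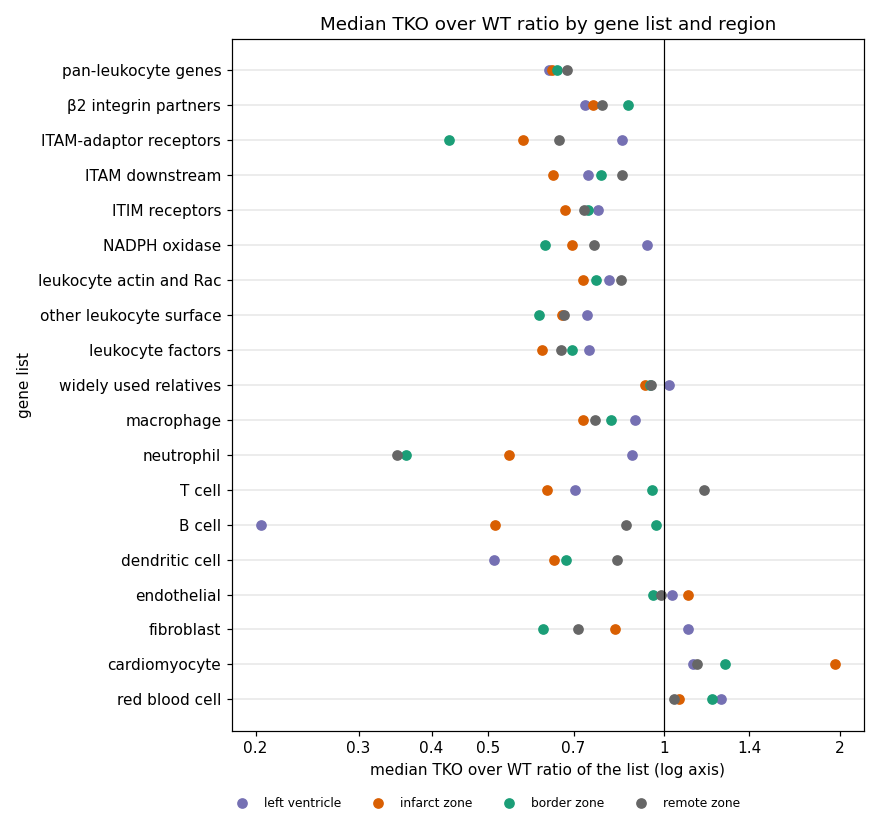
Median TKO over WT ratio (horizontal log axis) of each gene list (vertical axis) in 4 regions (colors), over the genes with more than 3 counts in both libraries compared; the line marks 1. The medians of the pan-leukocyte genes, which were chosen on these ratios, lie between 0.636 and 0.681, and those of the cardiomyocyte list between 1.12 and 1.96.

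Medians of markers of single blood lineages varied over regions. Macrophage markers (11 genes) had medians of 0.892 in LV and 0.728, 0.810, and 0.761 in infarct, border, and remote zones. Neutrophil markers had 0.882, 0.542, 0.361, and 0.349, with 4 to 7 genes above the floor, and their summed level ranged from 3.94 to 55.9 CPM in WT and from 3.17 to 30.1 CPM in TKO. B cell markers had 0.204 in LV (6 genes, ratios of 0.130 to 1.74) and 0.969 in the border zone (5 genes, 0.346 to 1.04). T cell markers had 0.630 in the infarct zone (9 genes, 0.413 to 1.14) and 1.17 in the remote zone (9 genes, 0.505 to 2.78). Summed levels of these 2 lists were highest in the WT infarct zone, at 25.4 CPM (B cell) and 24 CPM (T cell). Their ratios rest on few counts and disagree within a region, so nothing is read from the order of regions. Dendritic cell markers had medians of 0.512 to 0.831. Of the natural killer cell markers, 0 of 5 in LV were above the floor, and their summed level was at most 3.47 CPM, while mast cell markers reached at most 4.90 CPM. All 11 macrophage markers passed the filter and were called higher in the infarct zone over LV (28.2% of all genes were). Of the neutrophil and T cell markers tested, 2 of 4 and 6 of 7 had both LV libraries under the filter's minimum, so no count of calls is given for them.

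Other cell types of the heart moved with region and genotype too. In the infarct zone all 9 cardiomyocyte markers had TKO over WT ratios above 1 (median 1.96), and their summed level ran from 11400 to 51300 CPM over the WT libraries and from 23900 to 51300 CPM over the TKO libraries. All 9 were above 1 in the border zone (median 1.27) and the remote zone (1.14) too, and 5 of 9 in LV (1.12). The pan-leukocyte genes were lower in all 4 regions. Between regions, 9 of 9 cardiomyocyte markers fell in the infarct zone over LV (median log2 fold change -1.56), where 3715 of 12999 genes were called lower. Endothelial markers had median ratios of 0.956 to 1.10. Fibroblast markers had 1.10 in LV and 0.824, 0.620, and 0.711 in infarct, border, and remote zones, with summed levels of 899 to 8090 CPM in WT and 992 to 6780 CPM in TKO. Red blood cell genes, a measure of blood left in the tissue, had medians of 1.04 to 1.25. No marker list of these 4 cell types had a library in which its summed level was 0, and their part in the ratios of the pan-leukocyte genes was not tested.

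The genes whose pattern over the 8 libraries was most like that of the 9 genes were sought among the 10228 genes that averaged 5 CPM or more before TMM scaling, by Pearson's r with the mean of the 9 centered log2 profiles. The 10 most alike were *Mob3a*, *Gnai3*, *Fcgr2b*, *Cnn3*, *Nek6*, *Ccnl1*, *Ctss*, *Vcam1*, *Cnpy4*, and *Cytip*, with r from 0.9983 to 0.9946. These are descriptions over 8 libraries that share the steep rise in the infarct zone. The sizes of their differences varied. *Ctss*, which encodes the lysosomal protease cathepsin S, had an infarct zone over LV ratio of 6.63 within WT and TKO over WT ratios of 0.513 to 0.756. *Gnai3*, an inhibitory G protein subunit found in many cells, had 2.17 and 0.761 to 0.885. *Fcgr2b*, the inhibitory Fc receptor, was nearest in size, with 4.09 and 0.599 to 0.686. Each of the 9 genes had an r of 0.9859 (*Fcer1g*) to 0.9979 (*Laptm5*) with the mean of the other 8.

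Because these genes moved together, the letters around their transcript starts were also read. RefSeq promoter windows of GRCm38.p6 (250 bases before to 50 after the transcript start) were found for 7 of the 10 genes, as 10 windows, and none for *Tyrobp*, *Itgb2*, or *Rac2*. Both strands were searched for GAGGAAGT, a form of the site bound by PU.1, and for TGTGGT, the core of the site bound by RUNX factors, which do not overlap. The first was in 1 of the 10 windows, against 3.20% of 32851 windows of all genes, and the second in 2 of 10, against 16.8%. The windows with a match are shown as their first 280 bases, which hold 30 bases of the transcript. They lie at chr3:106790120-106790399 (*Cd53*) and chr1:171234320-171234599 (*Fcer1g*), both on the minus strand, and are written 5′ to 3′ with the matches in capitals.
Cd53: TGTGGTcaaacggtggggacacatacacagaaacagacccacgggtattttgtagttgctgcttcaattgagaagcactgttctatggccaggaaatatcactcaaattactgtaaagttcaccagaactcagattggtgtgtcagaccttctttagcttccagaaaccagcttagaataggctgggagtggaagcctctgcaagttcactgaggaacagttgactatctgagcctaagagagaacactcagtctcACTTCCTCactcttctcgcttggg
Fcer1g: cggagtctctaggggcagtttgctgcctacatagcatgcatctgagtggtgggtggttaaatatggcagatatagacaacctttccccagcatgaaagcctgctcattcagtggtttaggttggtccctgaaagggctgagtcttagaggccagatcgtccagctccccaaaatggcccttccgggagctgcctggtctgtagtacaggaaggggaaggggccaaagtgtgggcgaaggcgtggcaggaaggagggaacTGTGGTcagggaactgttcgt
In *Cd53* the RUNX core begins at base 1 of the window and the PU.1-like site, read on the opposite strand as ACTTCCTC, at base 257. In *Fcer1g* the RUNX core begins at base 260. The matches at bases 257 and 260 come after the 250 bases before the start, so they lie within the transcript. A match is a description of the letters, and its absence from the other windows says only that these exact letters were not there.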

How the data were processed

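RNA-seq of mouse heart tissue gave 8 libraries, 1 per genotype and region, grouped by their titles. The authors trimmed reads with Trim Galore 0.6.5, quantified transcripts with kallisto 0.46 against the mm10 transcriptome, and summarized genes with tximport; they list edgeR 3.34.1. The deposited table holds the authors' estimated counts per gene as whole numbers, without normalization. Such counts split reads among similar transcripts, which can move counts between related genes.

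Here, counts were scaled by TMM over genes averaging 1 CPM or more before TMM scaling (R 4.3.3, edgeR 4.0.16). A gene with 3 or fewer counts in either library compared was taken as being at the floor and given no ratio. Ratios between 2 libraries have exact binomial 95% intervals, which cover counting error only, and no p-value. Regions were compared with edgeR's quasi-likelihood test, with genotype as a covariate and Benjamini-Hochberg adjustment (threshold 0.05), and with DESeq2 1.42.0. These p-values rest on how far TKO over WT ratios vary between regions. They measure no spread between replicates, since each genotype and region has 1 library. The functions were tested on simulated data. Gene positions and transcript sequences came from GENCODE M21 (GRCm38), and further steps used Python 3.11.15 with matplotlib 3.10.9, pandas 2.3.3, and numpy 2.4.6.

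The genes and lists were chosen with earlier results of these data known. The text names the 10 genes, their 8 relatives, genes of the lists, *Tigar*, and the 10 genes of most similar pattern (log2 of TMM-scaled CPM plus 0.5, mean of at least 5 CPM before TMM scaling). Of the listed genes, *Fcer1a*, *Ly6g*, *Ms4a2*, *Lilrb4a*, and *Prf1* were not analysed here. A further listed gene is not reported here. Alternatives were other scalings, filters, tests, a fit without genotype, and leaving out each library.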

Additional observations from a re-analysis of the deposited data

Results flagged for a closer look

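The 9 pan-leukocyte genes were chosen for ratios under 1, which sets in part what follows for them. None of the 9 had TKO over WT ratios on opposite sides of 1 in different regions. Among the genes of the partner lists and the white blood cell marker lists reported here, 7 did, with counting-error intervals that excluded 1 on both sides. The relatives and the markers of cardiomyocytes, endothelial cells, fibroblasts, and red blood cells were left out of this search. Some of those genes also had such ratios, such as *Myh6*, with 0.666 in LV and 3.41 in the infarct zone. These differences between regions were not tested, since each ratio rests on 1 library per genotype. *Ccr2*, the chemokine receptor of recruited monocytes, had 1.44 in LV (1.04 to 2) and 0.375 in the infarct zone (0.337 to 0.416). *Trbc2*, a T cell receptor constant region, had 2.29 in the border zone and 0.630 in the infarct zone. *Mcpt4*, a mast cell protease, had 2.28 in the border zone and 0.486 in LV. The remaining 4 spanned less: *Cyba* had 1.22 in LV and 0.699 in the infarct zone, *Plcg2* 1.29 in LV and 0.778 in the border zone, *Mertk* 1.2 in the remote zone and 0.804 in the border zone, and *Icam2* 1.2 in the infarct zone and 0.862 in LV.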

How the results depend on the processing

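The 9 genes' median TKO over WT ratio kept its direction in all 4 regions under every scaling. It ranged from 0.628 to 0.641 in LV, from 0.524 to 0.660 in the infarct zone, from 0.614 to 0.664 in the border zone, and from 0.673 to 0.684 in the remote zone, and only total-count CPM in the infarct zone (0.524) moved it beyond the spread used as a limit. The number of the 9 genes called in the border zone over LV was 2, but 6 with DESeq2, 0 without a genotype term, and 0 to 2 when each library was left out. The counts for the other contrasts were 9 to 9 (infarct zone over LV), 8 to 9 (infarct over border zone), and 0 to 0 (remote zone over LV) when each library was left out. Over all genes, the number called higher was 87 in the border zone over LV, but 476 with DESeq2, 0 without a genotype term, and 189 with total-count scaling. With the same scaling it was 7475 instead of 2814 for infarct over border zone, and 7869 instead of 3670 for infarct zone over LV. For the remote zone over LV it was 0, but 127 with DESeq2, 1 without a filter, and 15 with total-count scaling. Leaving out each library gave 1 (without TKO remote zone or WT remote zone) to 297 (without TKO LV) for the border zone over LV, 348 (without TKO border zone) to 3449 for infarct over border zone, 2344 (without WT infarct zone) to 3579 for infarct zone over LV, and 0 to 39 (without WT LV) for the remote zone over LV. The alternatives for counts over all genes were added after the data were seen, and the cause of these changes was not tested. No direction was reversed. No paired analysis was possible because the labels give no replicate numbers that would match libraries beyond genotype, and genotype is a term of the fit whose removal is given above. Depth limits the genes of lowest count most, such as *Rac2* with 63 counts in TKO LV.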
